A study of Mus musculus with 27 samples.

Results

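The 10 genes described here belong to the Wnt pathway and were taken by symbol from the 22855 genes counted in both tissues: the secreted Wnt inhibitors Sfrp1, Sfrp2, Sfrp4, Dkk2, Dkk3, and Wif1, the Wnt ligands Wnt2, Wnt5a, and Wnt9b, and Axin2, a target gene and feedback inhibitor of the pathway. All 10 had a row in both tissues and passed the filter on low counts in each. RNA was sequenced from cardiac fibroblasts and from whole hearts of C57BL/6 mice, with no treatment and no altered allele in any group, at 5 ages. These were postnatal day 1 (P1), then 4 and 14 weeks, and the older ages of 1 year and 1.5 years. The fibroblasts were the cells of the digested ventricles that flow cytometry sorted by surface PDGFRα, with 3 samples at P1 and at 4 weeks and 2 samples at each later age, and whole hearts had 3 samples at each age. By the study's methods the samples of an age came from different animals or, for fibroblasts, from sets isolated from different hearts, and how many hearts made up a set is not given in the sources used here.

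Wnt ligands are secreted lipid-modified proteins that bind Frizzled receptors and the coreceptors LRP5 and LRP6. In the canonical branch this binding protects β-catenin from destruction, and β-catenin then acts with TCF/LEF factors on target genes such as Axin2, whereas ligands such as Wnt5a mainly use branches that do not need β-catenin. Secreted frizzled-related proteins (SFRPs) and WIF1 bind the ligands themselves, and DKK2 binds the LRP coreceptors. DKK3 is a divergent member of the Dickkopf family that is not a typical LRP ligand. Connective tissue cells are a known source of SFRPs, and Wnt signals take part in heart development and in scar formation.

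Libraries of cardiac fibroblasts held 54615898 to 76758831 counts, with 1.74% to 9.18% of them on mitochondrial genes, and those of whole hearts 46091271 to 67984404, with 10.8% to 34.5% on mitochondrial genes. The 10 fibroblast markers summed to between 37347 and 72086 CPM (the count scaled to a common library total) in the sorted cells and to between 1635 and 3508 in whole hearts, while the 9 cardiomyocyte markers summed to between 16.4 and 862 CPM in the sorted cells, highest at P1 (770 to 862), and their part in differences from P1 was not tested. The 9 endothelial markers were also present in the sorted cells, at 325 to 2689 CPM. The labels give no sex, and the X-linked transcript Xist was at most 0.490 CPM in every sample of 14 weeks and 1 year but at least 6.55 CPM in every sample of the other ages. The part of these sex-linked differences in comparisons of 14 weeks or 1 year with another age cannot be told apart from age. Low counts varied widely between replicates: of gene and age pairs with a mean of 20 to 200 counts, 38.0% (sorted cells) and 32.3% (hearts) had a sample with at most 3 counts.

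**Figure D1:**
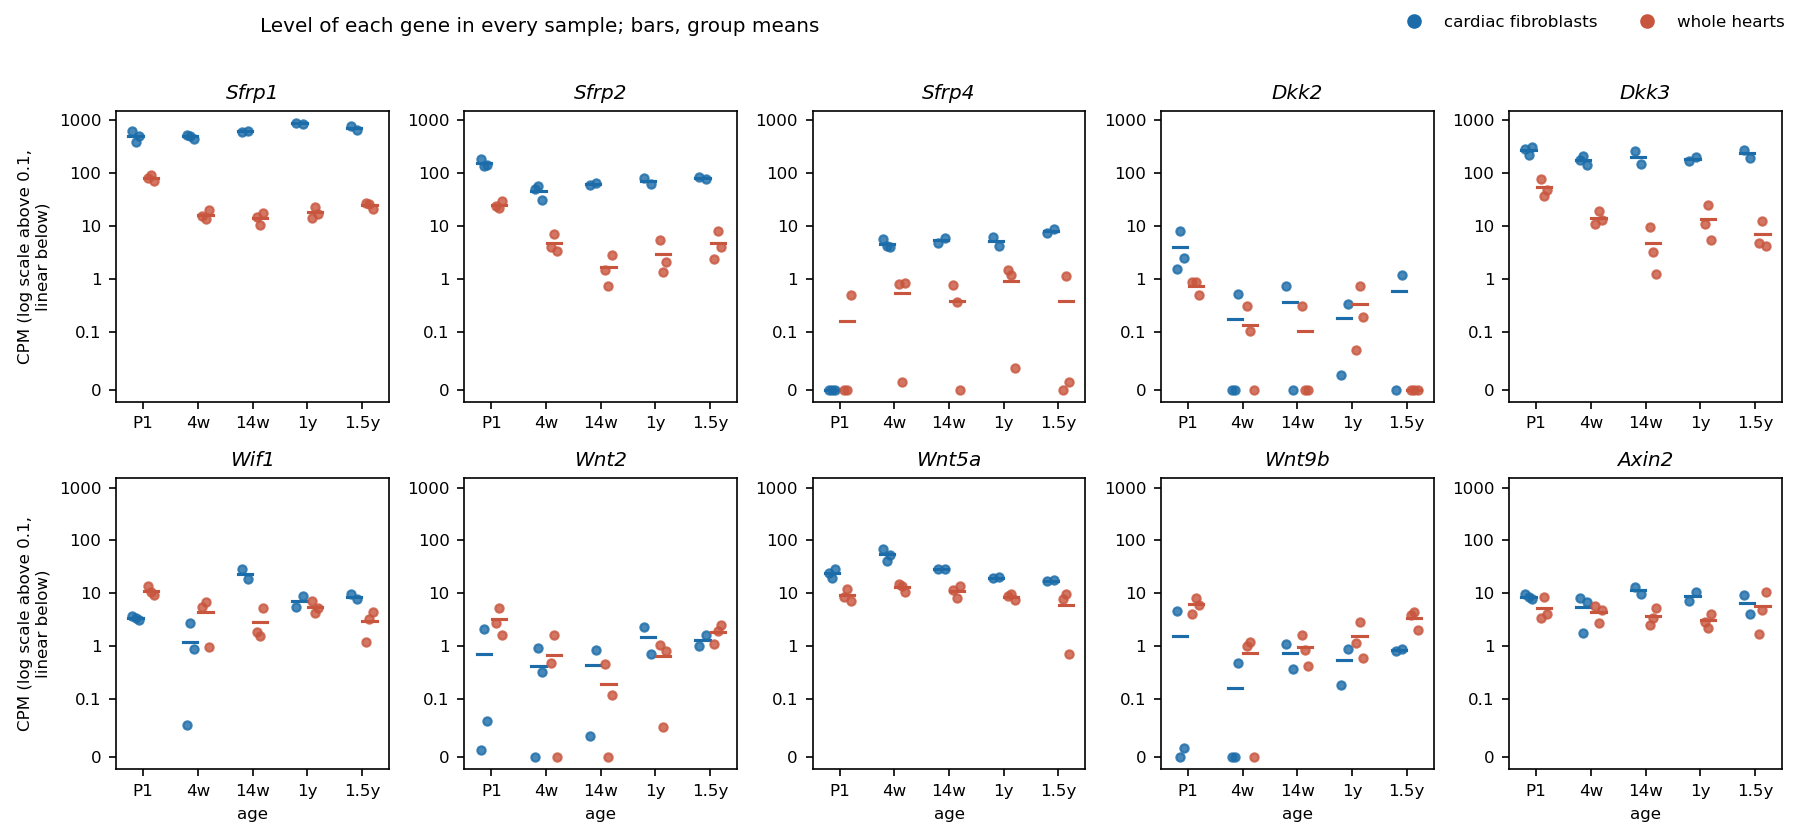
CPM of each gene (y axis, log scale above 0.1 and linear below) in each sample of cardiac fibroblasts (blue) and whole hearts (red) at the 5 ages (x axis), with a bar at each group mean. Sfrp1, Sfrp2, Dkk3, and Wnt5a lie higher in cardiac fibroblasts at every age, and Sfrp4 is at 0 in the 3 fibroblast samples of P1 and between 3.96 and 8.61 CPM in the other 9.

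The inhibitors Sfrp1, Dkk3, and Sfrp2 stood far above the ligands Wnt5a, Wnt2, and Wnt9b in cardiac fibroblasts, while Wif1, Sfrp4, and Dkk2 did not. On the scale of CPM per kb of exon, which allows genes of different length to be compared, the mean over the 5 ages was 149 for Sfrp1, 64.4 for Dkk3, and 38.8 for Sfrp2, against 3.68 for Wnt5a, 3.62 for Wif1, 1.48 for Axin2, 1.11 for Sfrp4, 0.386 for Wnt2, 0.289 for Dkk2, and 0.168 for Wnt9b. Sfrp1 led at every age, since its lowest age mean (114) was above the highest of Dkk3 (81.1). Dkk3 and Sfrp2 had overlapping age means, as did Wnt5a and Wif1 and every later pair of neighbors in this order. The ranges of age means alone therefore do not order those neighbors, and they do not exclude an order within an age. At P1 the samples of Dkk3 (65.4 to 92.4) and Sfrp2 (62.6 to 87.5) overlapped. After P1 every Dkk3 sample (lowest 42.2, at 4 weeks) was above every Sfrp2 sample (highest 40.2, at 1.5 years). In whole hearts the order began in the same way, with Sfrp1 at 7.15, Dkk3 at 5.61, and Sfrp2 at 3.66 CPM per kb, and went on to Wif1 at 2.21, Wnt5a at 1.23, Axin2 at 0.805, Wnt2 at 0.584, Wnt9b at 0.566, Sfrp4 at 0.113, and Dkk2 at 0.0707. There the age means of each gene overlapped those of its neighbor.

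Summed per kb, the 6 inhibitors reached 273 ± 48.9 (SD, n = 3) in cardiac fibroblasts at P1, 190 ± 27.2 (n = 3) at 4 weeks, 244 ± 17.8 (n = 2) at 14 weeks, 296 ± 5.17 (n = 2) at 1 year, and 282 ± 39.9 (n = 2) at 1.5 years. The 3 ligands summed to 3.74 ± 0.320, 7.16 ± 1.72, 4.03 ± 0.168, 3.29 ± 0.292, and 2.95 ± 0.255 at the same ages. The ratio of these 6 inhibitors to these 3 ligands was thus lowest at 4 weeks, where it was 22.5 to 37.9 in the 3 samples. It was 55.9 to 112 in the samples of the other ages. In whole hearts the ratio was 8.27 to 18.3 at P1 and 3.54 to 8.24 at all later ages. Sfrp1 made up 42.7% of the inhibitor sum in cardiac fibroblasts at P1 and 68.5% at 1 year. These sums are descriptions over genes that were chosen together, and no test was made of them. They leave out other ligands and inhibitors, so their course holds for the chosen genes only. In cardiac fibroblasts the ligand Wnt11 had a mean of 42.8 CPM at 4 weeks and 60.6 at 1.5 years, beside 54.3 and 17.1 for Wnt5a. These CPM values are not scaled to exon length, unlike the sums, and do not order the genes. The inhibitor Igfbp4 had a mean of 730 CPM there at P1 and 2736 at 1.5 years.

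**Figure D2:**
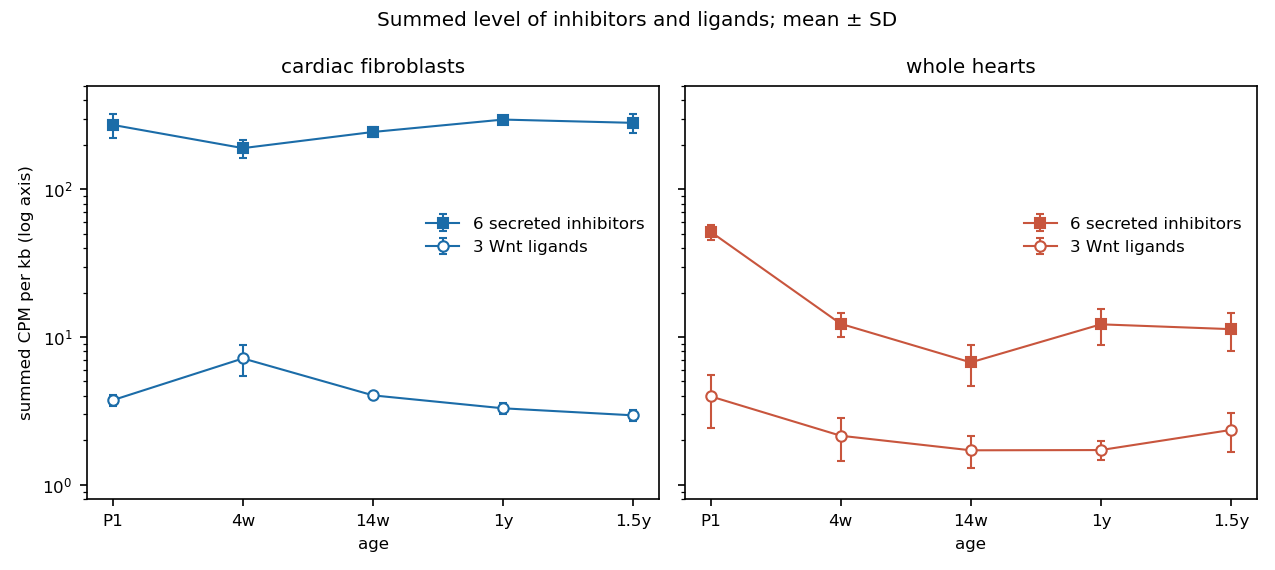
Summed CPM per kb (y axis, log) of the 6 secreted inhibitors (squares) and the 3 ligands (open circles) by age in cardiac fibroblasts (left) and whole hearts (right), as mean ± SD of 2 or 3 samples. In cardiac fibroblasts the inhibitors stay between 190 and 296 while the ligands peak at 7.16 at 4 weeks, and in whole hearts the inhibitors are at 51.6 at P1 and at most 12.3 later.

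Differences among the 5 ages were tested with edgeR's quasi-likelihood F test with Benjamini-Hochberg adjustment over all genes tested, and a gene was counted as changed at an adjusted p under 0.05. In cardiac fibroblasts 5 of the 10 genes differed among ages, against 19.9% of all 18759 genes tested, and these were Sfrp1 (adjusted p = 0.00228), Sfrp2 (0.000943), Sfrp4 (0.000176), Wif1 (0.0328), and Wnt5a (0.00116). In whole hearts 3 of the 10 differed, against 34.3% of 17995 genes, and these were Sfrp1 (1.81e-05), Sfrp2 (0.00224), and Dkk3 (0.0139). Dkk2, Wnt2, Wnt9b, and Axin2 passed this test in neither tissue. From P1 to 4 weeks 3 of the 10 passed in cardiac fibroblasts (15.5% of all genes) and 2 of the 10 in whole hearts (18.2% of all genes). From P1 to 1.5 years 2 passed in cardiac fibroblasts (16.3% of all genes) and 4 in whole hearts (31.8% of all genes). The comparisons that start at P1 share the same P1 samples and are not independent of each other. The median log2 fold change of the 10 genes from P1 to 4 weeks was -0.63 in the fibroblasts and -1.55 in the hearts, beside 0.0039 and -0.087 for all genes tested, and from P1 to 1.5 years it was -0.069 and -0.69, beside 0.00 and -0.15.

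**Figure D3:**
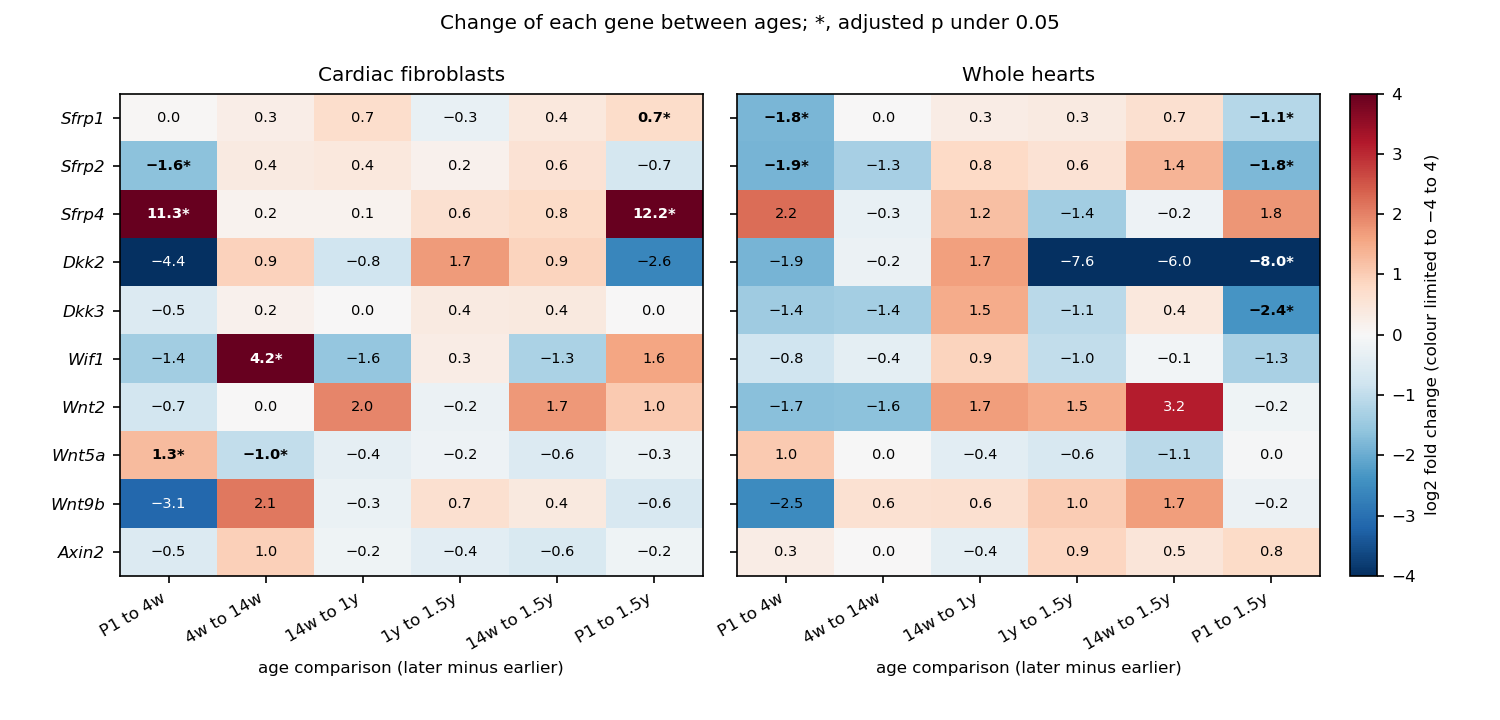
Log2 fold change of each gene (rows) in 6 comparisons of ages (columns, later minus earlier) in cardiac fibroblasts and whole hearts, with an asterisk where the adjusted p was under 0.05 and colors limited to -4 to 4. The numbers for Sfrp4 against P1 in cardiac fibroblasts and for Dkk2 against 1.5 years in whole hearts are fitted against samples at 0 and give no size; asterisks fall mostly in the columns that start at P1.

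Sfrp1, the inhibitor with the highest mean over the ages in both tissues, is on chr8:23411502-23449632 (plus strand, GENCODE M21 on GRCm38). Its CPM in cardiac fibroblasts was 635, 397, and 505 at P1, 541, 515, and 440 at 4 weeks, 603 and 644 at 14 weeks, 908 and 868 at 1 year, and 787 and 670 at 1.5 years. Both samples of each of the 2 oldest ages were above all samples of the younger ages. From P1 to 1.5 years Sfrp1 rose by 0.72 on the log2 scale (SE 0.17, 1.65-fold, adjusted p = 0.0096, edgeR). This call was lost when libraries were scaled by total count only (log2 fold change 0.51, adjusted p = 0.0653), without replicate 4 of 1.5 years (0.60, 0.0891), and when only the 2 ages were in the fit (0.73, 0.0646). From P1 to 4 weeks the log2 fold change was 0.049 (SE 0.15, adjusted p = 0.90). From 14 weeks to 1 year it was 0.69 (SE 0.19, adjusted p = 0.0907), which did not pass although the samples did not overlap, and it passed with DESeq2 (adjusted p = 0.00684) and without replicate 1 of P1 (0.0445).

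In whole hearts the course of Sfrp1 was different. It was at 81.4, 94.3, and 72.5 CPM at P1, followed by 15.4, 13.4, and 20.3 at 4 weeks, 14.9, 10.3, and 17.3 at 14 weeks, 14.4, 23.0, and 17.2 at 1 year, then 27.3, 26.3, and 20.6 at 1.5 years. Every P1 sample was above every later sample. Sfrp1 fell by 1.83 on the log2 scale from P1 to 4 weeks (SE 0.23, 3.55-fold, adjusted p = 2.25e-05) and was still lower at 1.5 years than at P1 (log2 fold change -1.14, SE 0.22, adjusted p = 0.000871). From 14 weeks to 1.5 years the 3 samples of each age did not overlap, with a log2 fold change of 0.65 (SE 0.22) and an adjusted p of 0.0641 that passed with DESeq2 (0.0178). In bulk samples, fewer cells of a type and less RNA per cell cannot be told apart. Beside this fall, Pdgfra, which marks the fibroblasts, changed in whole hearts from P1 to 4 weeks by 0.51 on the log2 scale (SE 0.22, adjusted p = 0.126), and the 10 fibroblast markers summed to 1986 to 2509 CPM at P1 and 2234 to 3508 at 4 weeks. The members of that list did not move together: mean Gsn went from 401 to 1727 CPM and Dcn from 239 to 464, while Col1a1 went from 802 to 287, Col1a2 from 590 to 293, Tcf21 from 40.3 to 10.6, and Pdpn from 11.4 to 6.54 (n = 3 each). The 7 epicardial and mesothelial markers summed to 91.6 to 166 CPM at P1 and 31.6 to 64.8 at 4 weeks, and the 5 endocardial and valve markers to 162 to 275 and 67.9 to 125, and the part of any of these in the fall was not tested. The size of the fall depends on the scaling, since scaling by total count moved the median of all genes in whole hearts from -0.087 to -0.60, and relative to that median Sfrp1 fell by 1.74 under both scalings.

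Sfrp2, on chr3:83766321-83774316 (plus strand), was highest at P1 in both tissues. In cardiac fibroblasts its CPM was 188, 135, and 141 at P1, 50.5, 58.5, and 31.1 at 4 weeks, 60.8 and 64.0 at 14 weeks, 82.2 and 63.5 at 1 year, and 86.5 and 76.2 at 1.5 years. It fell by 1.64 on the log2 scale from P1 to 4 weeks (SE 0.21, 3.12-fold, adjusted p = 0.000188). The samples of 1.5 years were all above those of 4 weeks and below those of P1, with a log2 fold change from P1 of -0.71 (SE 0.24, adjusted p = 0.0621). That comparison passed with DESeq2 (adjusted p = 0.0189) and with scaling by total count (0.0192). In whole hearts Sfrp2 was at 23.5, 22.4, and 29.6 CPM at P1 and between 0.738 and 7.94 CPM in the 12 later samples. It fell there by 1.87 on the log2 scale from P1 to 4 weeks (SE 0.58, adjusted p = 0.0323), and was lower by 1.5 years as well (log2 fold change -1.81, SE 0.58, adjusted p = 0.0244). Leaving out any 1 heart of P1, or replicate 1 or 3 of the later age, ended each of these calls, with adjusted p up to 0.122 at 4 weeks and up to 0.0862 at 1.5 years.

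The stretch of 250 bases before the Sfrp2 start is given because Sfrp2 changed with age in both tissues, and that of Axin2 because Axin2 is the target gene of the set. RefSeq start sites (GRCm38.p6) were at hand for 6 of the 10 genes, namely Sfrp2, Dkk2, Wif1, Wnt2, Wnt9b, and Axin2. Both sequences are on the plus strand and run 5′ to 3′, with CG dinucleotides, the sites of DNA methylation, in capitals.
Sfrp2 chr3:83766071-83766320: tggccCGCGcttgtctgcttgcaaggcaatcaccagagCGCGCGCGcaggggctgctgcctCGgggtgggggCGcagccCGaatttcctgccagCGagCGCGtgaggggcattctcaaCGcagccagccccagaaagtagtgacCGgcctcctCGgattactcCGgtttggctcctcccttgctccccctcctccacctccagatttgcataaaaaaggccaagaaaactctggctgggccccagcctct
Axin2 chr11:108920099-108920348: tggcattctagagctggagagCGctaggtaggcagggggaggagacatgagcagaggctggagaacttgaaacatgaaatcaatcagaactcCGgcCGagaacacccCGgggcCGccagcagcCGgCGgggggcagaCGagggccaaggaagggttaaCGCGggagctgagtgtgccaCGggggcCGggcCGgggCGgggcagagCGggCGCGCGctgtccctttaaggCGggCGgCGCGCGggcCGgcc
The Sfrp2 stretch holds 16 CG dinucleotides and that of Axin2 holds 24, and 25.4% and 11.98% of 32851 stretches of the same length before RefSeq starts hold at least as many (median 6). The TCF/LEF motif CTTTGAT, searched on both strands, is in 0 of the 6 stretches and in 3.21% of all stretches. These letters are a description, and nothing follows from their absence about the factors.

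Sfrp4, on chr13:19623104-19632994 (plus strand), was not detected in cardiac fibroblasts before 4 weeks. It had 0 counts in all 3 fibroblast samples of P1, and 5.70, 4.23, and 3.96 CPM at 4 weeks, 4.69 and 6.00 at 14 weeks, 6.16 and 4.12 at 1 year, and 7.51 and 8.61 at 1.5 years. Against a limit of 3 counts per library, Sfrp4 was at least 104-fold higher at 4 weeks than at P1 (adjusted p = 3e-05) and at least 181-fold higher at 1.5 years (adjusted p = 1.66e-05), limits that cover counting error only. From 4 to 14 weeks, from 14 weeks to 1 year, from 1 year to 1.5 years, and from 14 weeks to 1.5 years it did not pass (adjusted p from 0.687 to 1.0). The samples of 1.5 years lay above all others without overlap, and 4 weeks was not tested against 1 year or 1.5 years. In whole hearts Sfrp4 ranged from 0 to 1.44 CPM, with 7 of 15 samples at 3 counts or fewer and such samples present at each age, so that no course with age could be seen at this depth.

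Dkk3, the Dickkopf family member with the highest level, is on chr7:112116017-112159057 (minus strand). In cardiac fibroblasts it ranged from 142 to 310 CPM over all 12 samples and passed in no comparison of ages. The nearest was P1 to 4 weeks, where 287, 220, and 310 CPM stood against 178, 209, and 142 CPM without overlap, with a log2 fold change of -0.54 (SE 0.21) and an adjusted p of 0.114 (0.0419 with DESeq2). In whole hearts Dkk3 was at 78.3, 36.9, and 47.8 CPM at P1, followed by 10.9, 19.2, and 13.3 at 4 weeks, 9.73, 3.23, and 1.22 at 14 weeks, 10.7, 24.9, and 5.40 at 1 year, then 4.70, 12.4, and 4.13 at 1.5 years. It fell by 2.37 on the log2 scale from P1 to 1.5 years (SE 0.66, 5.18-fold, adjusted p = 0.0114), and the value without replicate 1 of P1 was -1.94 (adjusted p = 0.0547). Its change from P1 to 4 weeks was -1.41 (SE 0.64, adjusted p = 0.143). With scaling by total count this passed (adjusted p = 0.0388), as it did with only the 2 ages in the fit (0.0188). The replicates of the later hearts varied widely, most of all at 14 weeks and 1 year, as the plot of CPM by sample shows.

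Dkk2, on chr3:132085292-132180304 (plus strand), was near the limit of detection outside P1. At P1 it had 1.50, 8.19, and 2.46 CPM in cardiac fibroblasts, above all 9 later samples, of which 4 were at 0 and the highest was 1.17 CPM. The fitted log2 fold change from P1 to 4 weeks was -4.43 with an SE of 2.63 (adjusted p = 0.275), and the gene's biological coefficient of variation in cardiac fibroblasts was 189%. In whole hearts Dkk2 was at 0.870, 0.866, and 0.483 CPM at P1 and at 0 in all 3 samples of 1.5 years, at least 15.5-fold lower (adjusted p = 0.0426). This limit covers counting error only, the P1 hearts held just 57, 57, and 32 counts, and some hearts of 4 and 14 weeks were also at 0. The call was lost without any 1 of the hearts of P1, 1 year, or 1.5 years or without replicate 2 of 4 weeks, with adjusted p from 0.0516 to 0.102. It was also lost without the filter (0.0540) and with the replicate block (0.0513).

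Wif1, on chr10:121033960-121100650 (plus strand), had its highest fibroblast level at 14 weeks. The samples of P1 were close together at 3.64, 3.34, and 3.09 CPM, those of 4 weeks ranged over 0.0545, 2.72, and 0.862, and those of 14 weeks were at 28.4 and 18.8, followed by 5.38 and 8.75 at 1 year and 9.60 and 7.74 at 1.5 years. From 4 to 14 weeks Wif1 rose by 4.22 on the log2 scale (SE 0.95, adjusted p = 0.0273), and it did not pass with only the 2 ages in the fit (adjusted p = 0.0945) or without replicate 3 of 4 weeks (0.0756), replicate 4 of 14 weeks (0.192), or replicate 6 of 14 weeks (0.106). Xist was at 383 to 600 CPM in the fibroblast samples of 4 weeks and at 0.0183 to 0.0728 in those of 14 weeks, the 9 smooth muscle and pericyte markers summed to 422 to 496 and 832 to 938 CPM, and the 8 macrophage and leukocyte markers to 197 to 283 and 24.8 to 34.3 CPM. The part of each of these in the rise was not tested. From 14 weeks to 1 year the log2 difference of Wif1 was -1.56 (SE 1.00, adjusted p = 0.578), which passed with only the 2 ages in the fit (adjusted p = 0.0210) and with the replicate block (0.0472). In whole hearts Wif1 was at 13.5, 10.5, and 9.11 CPM at P1 and between 0.938 and 7.25 CPM in the 12 later samples, without passing in any comparison. With scaling by total count its change there from P1 to 1.5 years did pass (log2 fold change -1.90, adjusted p = 0.0325, edgeR).

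Of the 3 ligands among the 10 genes, Wnt5a, on chr14:28504750-28527448 (plus strand), was the only one with at least 10 counts in every sample of both tissues. It peaked in cardiac fibroblasts at 4 weeks. Its CPM was 24.0, 19.8, and 28.6 at P1, 70.0, 40.0, and 53.0 at 4 weeks, 28.5 and 28.9 at 14 weeks, 19.2 and 20.1 at 1 year, and 16.8 and 17.5 at 1.5 years. All 3 samples of 4 weeks were above all 9 others. Wnt5a rose by 1.26 on the log2 scale from P1 to 4 weeks (SE 0.22, 2.39-fold, adjusted p = 0.00147). From 4 to 14 weeks it fell by 0.97 (SE 0.24, adjusted p = 0.0462), a call near the threshold that held in 8 of 19 alternatives, and without replicate 4 or replicate 6 of 14 weeks the adjusted p was 0.360 and 0.310. The change from 14 weeks to 1.5 years was -0.56 (SE 0.26, adjusted p = 0.376), although these samples did not overlap either. In whole hearts Wnt5a was between 7.15 and 15.1 CPM in 14 of 15 samples and at 0.691 CPM in replicate 3 of 1.5 years, and passed in no comparison of ages. From P1 to 4 weeks its log2 fold change there was 1.04 (SE 0.56, adjusted p = 0.221), and without that 1 heart it was 1.04 with an adjusted p of 0.0136.

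Wnt2 and Wnt9b were low, and their replicates varied widely in cardiac fibroblasts. Wnt2, on chr6:17988940-18030585 (minus strand), had 0.0134, 2.07, and 0.0627 CPM at P1 in cardiac fibroblasts and at most 2.28 CPM in any other fibroblast sample, and its biological coefficient of variation was 157%. Wnt9b, on chr11:103727364-103749821 (minus strand), had 4.58, 0, and 0.0157 CPM in the 3 fibroblast samples of P1 and at most 1.10 CPM in the other 9. In whole hearts the mean of both was highest at P1, with Wnt9b at 4.10, 8.22, and 6.06 CPM and Wnt2 at 2.76, 5.32, and 1.59 CPM. Wnt9b was at 0.987, 1.19, and 0 CPM in the hearts of 4 weeks, with a log2 fold change from P1 of -2.52 (SE 1.14, adjusted p = 0.143, and 0.0473 with DESeq2). It was at 3.87, 4.39, and 2.05 CPM in the hearts of 1.5 years and at 1.64, 0.824, and 0.413 in those of 14 weeks, without overlap (log2 fold change 1.67, SE 1.11, adjusted p = 0.348). Wnt2 stood at 1.11, 1.90, and 2.55 against 0.450, 0, and 0.120 CPM at the same ages, also without overlap (log2 fold change 3.16, SE 1.66, adjusted p = 0.223).

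Axin2, on chr11:108920349-108950783 (plus strand), is transcribed in response to β-catenin and passed in no comparison of ages. In cardiac fibroblasts it was at 9.50, 8.45, and 7.75 CPM at P1, 8.20, 1.73, and 6.81 at 4 weeks, 13.1 and 9.52 at 14 weeks, 7.27 and 10.4 at 1 year, and 9.10 and 4.04 at 1.5 years. The samples of 14 weeks lay above those of 4 weeks and of 1.5 years without overlap, with log2 differences of 0.96 (SE 0.58, adjusted p = 0.460) and -0.60 (SE 0.65, adjusted p = 0.766) that did not pass, and the other ages overlapped with their neighbors. From P1 to 1.5 years its log2 fold change was -0.17 (SE 0.59, adjusted p = 0.926). In whole hearts it ranged from 1.72 CPM to 10.6 CPM, both values from hearts of 1.5 years, and from P1 to 1.5 years its log2 fold change was 0.77 (SE 0.61, adjusted p = 0.357).

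From 14 weeks on, none of the 10 genes passed edgeR's test in either tissue. From 14 weeks to 1 year 0 of the 10 passed edgeR's test in cardiac fibroblasts (1.78% of all genes did), where 1 had an unadjusted p under 0.05 and DESeq2 called 1, Sfrp1. From 1 year to 1.5 years 0 passed (0.24% of all genes), with 0 at an unadjusted p under 0.05 and 0 by DESeq2, and from 14 weeks to 1.5 years 0 passed (2.72% of all genes), with 2 at an unadjusted p under 0.05 and 0 by DESeq2. From 4 to 14 weeks the 2 already given, Wif1 and Wnt5a, passed, against 3.87% of all genes. In whole hearts 0 of the 10 passed from 4 to 14 weeks (1.61% of all genes), from 14 weeks to 1 year (0.972%), from 1 year to 1.5 years (2.66%), and from 14 weeks to 1.5 years (12.8%), and 2, 1, 1, and 3 had an unadjusted p under 0.05. DESeq2 called 0, 0, 0, and 1 in these comparisons, the last being Sfrp1. At these sample numbers the SE of single genes was between 0.19 for Sfrp1 and 2.94 for Wnt9b from 14 weeks to 1.5 years in cardiac fibroblasts, so that for the low genes large changes would not have been detectable.

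The tissues were then compared with all 27 samples in one fit. The study's text says that fibroblasts and the hearts they came from were both sequenced, so samples of the tissues may share animals, and the fit treats them as independent since the labels do not link them. Averaged over the 5 ages, 4 of the 10 genes were higher in cardiac fibroblasts (27.7% of all 20650 genes were) and 0 were lower (29.1% of all genes were, 56.8% being called in either direction). Sfrp1 was higher by 4.37 on the log2 scale (SE 0.10, 20.7-fold, adjusted p = 1.08e-20), Dkk3 by 3.71 (SE 0.27, adjusted p = 2.03e-11), Sfrp2 by 3.63 (SE 0.23, adjusted p = 8.53e-13), and Wnt5a by 1.18 (SE 0.23, adjusted p = 8.23e-05). For these 4 genes the samples of the tissues did not overlap at any age. The ligand Wnt9b pointed the other way, with a log2 difference of -1.99 (SE 0.90, adjusted p = 0.0665); without the fibroblast sample of P1 at 4.58 CPM it was -3.43 (adjusted p = 0.00132), without replicate 3 of 4 weeks -3.22 (0.00476), and DESeq2 also called it (0.0175). Wif1 differed by -0.075 (SE 0.38), Axin2 by 0.54 (SE 0.29, adjusted p = 0.125), and Wnt2 by -0.51 (SE 0.89). The direction of this mean for Wif1 turned with scaling by total count and without the filter, and the mean joins opposite differences. The ratio of mean Wif1 CPM, fibroblasts to hearts, was 0.305 at P1, 8.12 at 14 weeks, and 2.93 at 1.5 years, without overlap. It was 0.274 at 4 weeks and 1.27 at 1 year, with overlap. Axin2 passed edgeR's test with scaling by total count (0.87, adjusted p = 0.0128) and without replicate 3 of the hearts of 1.5 years (0.80, 0.0146). No size can be given for Sfrp4, which was at 0 in fibroblasts of P1, and for Dkk2 the difference was 2.10 (SE 1.08, adjusted p = 0.108). Without replicate 1 of the hearts of 14 weeks Dkk2 passed edgeR's test (3.43, adjusted p = 0.0220). Only the fibroblast samples were digested and sorted, so tissue and preparation cannot be told apart.

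**Figure D4:**
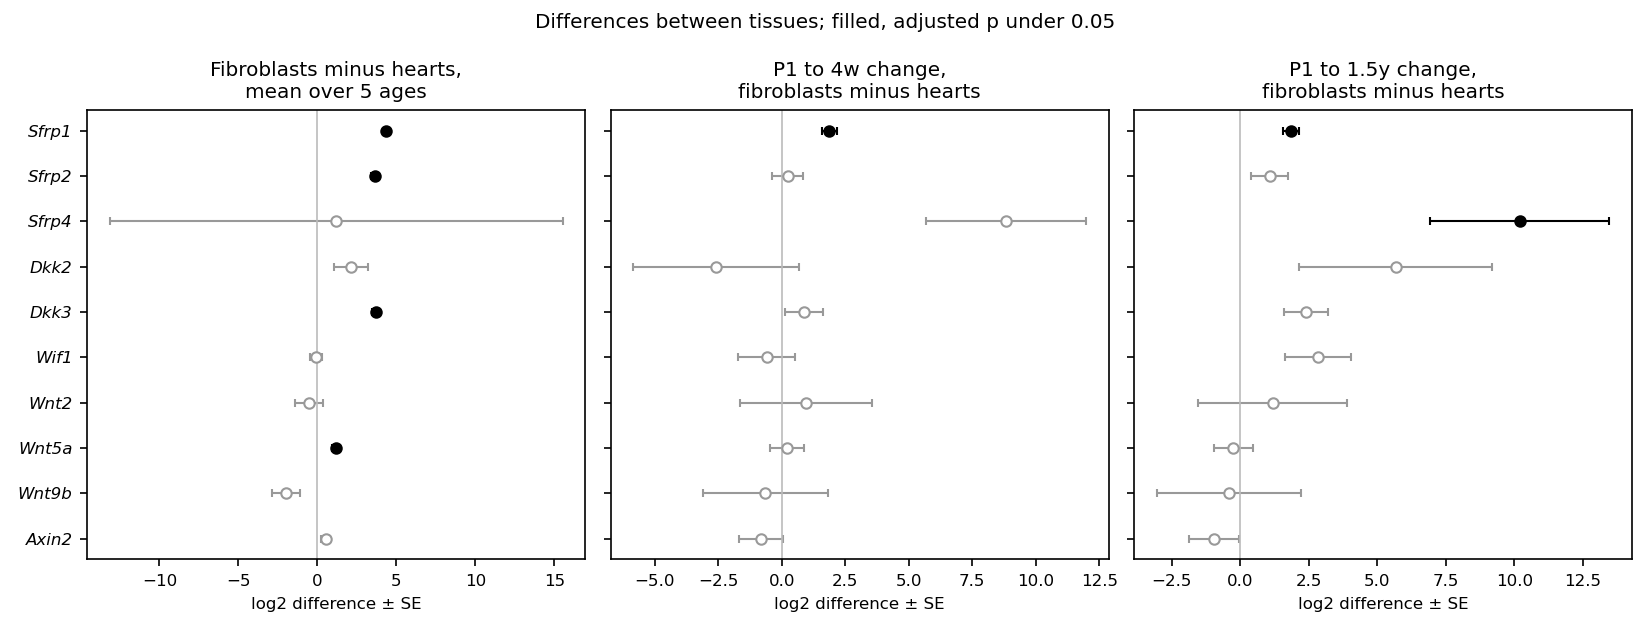
Log2 difference ± SE (x axis) of each gene (rows) between cardiac fibroblasts and whole hearts over the 5 ages (left), and of its change from P1 to 4 weeks (middle) and to 1.5 years (right), fibroblasts minus hearts; filled points had an adjusted p under 0.05. Sfrp1 is filled in all 3 panels, at 4.37, 1.87, and 1.84, and the fitted values of Sfrp4 rest on P1 fibroblasts at 0 and give no size.

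The change from P1 was also compared between the tissues. From P1 to 4 weeks it differed for 1 of the 10 genes, Sfrp1 (7.14% of all genes), by 1.87 on the log2 scale (SE 0.28, adjusted p = 0.000123). From P1 to 1.5 years it differed for 2 of the 10 (13.6% of all genes), Sfrp1 by 1.84 (SE 0.29, adjusted p = 0.000177) and Sfrp4 (adjusted p = 0.0422), the latter with no size since its fibroblasts of P1 were at 0. The call for Sfrp4 held in 14 of 32 alternatives. It was lost without any 1 fibroblast sample of P1, 14 weeks, 1 year, or 1.5 years and without any of 9 hearts, with adjusted p of 1.0 without replicate 3 of the P1 hearts and from 0.0517 to 0.0847 without the others. The median of all genes in these tests was 0.17 and 0.32, and relative to it the difference of Sfrp1 was 1.70 and 1.52. In CPM, which unlike the test is scaled by total count, the ratio of mean Sfrp1 in cardiac fibroblasts to that in whole hearts was 6.19 at P1. This ratio then stood at 30.4 (4 weeks), 44.1 (14 weeks), 48.8 (1 year), and 29.5 (1.5 years). With scaling by total count the fitted difference in the change of Sfrp1 to 4 weeks was 2.30. For Sfrp2, which was lower at 4 weeks than at P1 in both tissues, the change differed by 0.22 (SE 0.63, adjusted p = 1.0). Dkk3 changed from P1 to 1.5 years by 0.031 in cardiac fibroblasts and by -2.37 in whole hearts, and the difference of 2.38 (SE 0.80) had an adjusted p of 0.0512. The difference for Wif1 over the same ages did not pass, but it passed without replicate 1 of the 4-week fibroblasts (2.84, adjusted p = 0.0462, edgeR). The peak of Wnt5a at 4 weeks did not differ between tissues by this test (0.22, SE 0.67, adjusted p = 1.0), an SE that leaves room for sizeable differences.

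The other genes of the pathway were taken from lists of ligands, secretion factors, inhibitors, R-spondins, receptors, intracellular components, TCF/LEF factors, and target genes, in all 85 genes, of which 74 had a row. In cardiac fibroblasts 71 were tested, and 9 rose and 15 fell from P1 to 4 weeks (15.5% of all genes were called in either direction), while 13 rose and 10 fell from P1 to 1.5 years (16.3% of all genes). The median log2 fold change of these lists was -0.18 and -0.15, beside 0.0039 and 0.00 for all genes. Of the 10 other Wnt ligands tested there, 3 rose and 1 fell from P1 to 4 weeks, against 15.5% of all genes in either direction. Wnt10b had at most 2 counts in any fibroblast sample of P1 and was at 11.3 ± 2.02 CPM (SD, n = 3) at 4 weeks (adjusted p = 4.44e-05). Wnt11, a ligand of the noncanonical branches, rose from 8.82 ± 5.92 to 42.8 ± 9.57 CPM (n = 3 each, log2 fold change 2.37, SE 0.42, adjusted p = 0.00179) and reached 60.6 ± 2.77 (n = 2) at 1.5 years. Wls, the carrier that Wnt ligands need for secretion, went the opposite way in the tissues, rising from P1 to 4 weeks by 0.66 in the sorted cells (SE 0.14, adjusted p = 0.00704) while it changed by -0.66 in hearts (SE 0.17, adjusted p = 0.0132).

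Of the 17 receptors and coreceptors, 4 rose and 3 fell in cardiac fibroblasts from P1 to 4 weeks (15.5% of all genes). Kremen1, a receptor for Dickkopf proteins, rose by 1.84 on the log2 scale (SE 0.11, adjusted p = 4.09e-07), Fzd1 by 0.96 (SE 0.17, adjusted p = 0.00234), and Lrp6 by 0.57 (SE 0.11, adjusted p = 0.00264), whereas Fzd2 fell by 0.60 (SE 0.18, adjusted p = 0.0415). For Lrp5, the other coreceptor, the value was 0.10 (SE 0.10, adjusted p = 0.576). The R-spondin receptor gene Lgr6 fell from 3.78 ± 0.694 to 0.0136 ± 0.0136 CPM in cardiac fibroblasts (n = 3 each, adjusted p = 0.0313) and rose from 16.7 ± 1.48 to 46.4 ± 4.00 CPM in whole hearts (n = 3 each, adjusted p = 7.6e-07). Rspo1, a ligand of such receptors, was higher at 1.5 years than at P1 in cardiac fibroblasts (log2 fold change 3.75, SE 1.02, adjusted p = 0.0235). Ctnnb1, which encodes β-catenin, changed in cardiac fibroblasts by 0.11 (SE 0.11, adjusted p = 0.605) from P1 to 4 weeks and by -0.073 (SE 0.13, adjusted p = 0.795) from P1 to 1.5 years.

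Of the target genes of the canonical branch other than Axin2, 12 were tested in cardiac fibroblasts: 0 rose and 4 fell from P1 to 4 weeks (15.5% of all genes), and 2 rose and 3 fell from P1 to 1.5 years (16.3% of all genes). Wisp1 fell from 13.3 ± 1.43 CPM at P1 (n = 3) to 1.37 ± 0.367 at 4 weeks (n = 3, adjusted p = 0.0128) and 0.561 ± 0.285 at 1.5 years (n = 2, adjusted p = 0.00752). Nkd1, a feedback inhibitor, fell by 1.56 on the log2 scale from P1 to 4 weeks (SE 0.42, adjusted p = 0.0238). From P1 to 1.5 years the cyclin gene Ccnd1 fell by 1.71 (SE 0.18, adjusted p = 2.48e-05) and Apcdd1, which encodes a membrane inhibitor of the pathway, by 1.67 (SE 0.15, adjusted p = 7.01e-06). Lef1, both a factor and a target of the pathway, was at 2.30 ± 1.55 CPM at P1 (n = 3) and had at most 1 count in either fibroblast sample of 1.5 years, without passing (adjusted p = 0.167).

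In whole hearts 69 genes of these lists were tested, and 6 rose and 9 fell from P1 to 4 weeks (18.2% of all genes), while 3 rose and 27 fell from P1 to 1.5 years (31.8% of all genes), with a median of -0.28 and -0.89 beside -0.087 and -0.15 for all genes. Wisp1 fell by 2.84 from P1 to 4 weeks (SE 0.85, adjusted p = 0.028) and by 5.66 to 1.5 years (SE 0.98, adjusted p = 0.000341). The receptor gene Ror2, which binds Wnt5a, fell by 2.73 (SE 0.76, adjusted p = 0.0178) and by 4.18 (SE 0.81, adjusted p = 0.000868). Wnt16 was at 1.33 ± 0.346 CPM at P1 (n = 3) and at 0 in all samples of 4 weeks (adjusted p = 0.0382) and of 1.5 years (adjusted p = 0.0265). Lrp5 rose by 1.18 from P1 to 4 weeks (SE 0.17, adjusted p = 0.000136) and Kremen1 by 0.95 (SE 0.17, adjusted p = 0.000794). For the 3 genes that rose to 1.5 years, Lgr6, Igfbp4, and Gsk3a, the CPM of P1 and 1.5 years overlapped, with log2 fold changes of 0.78, 0.62, and 0.62 on the TMM scale.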

How the data were processed

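RNA-Seq was done on 12 samples of sorted cardiac fibroblasts and 15 of whole hearts. The authors mapped single-end reads to mm10 with STAR 2.5.3a and deposited raw gene counts from its gene count option. The annotation and the strand setting are not given in the sources used here, and overlapping genes therefore remain uncertain. The authors used DESeq2. The methods describe 3 sets of fibroblasts per age, and 2 samples are analysed here at each age after 4 weeks.

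Groups were taken from the labels. Counts as deposited were fitted in R 4.3.3 with edgeR 4.0.16 (TMM scaling, filterByExpr by group, quasi-likelihood F test) in 1 fit per tissue over all ages, and in 1 fit of 27 samples for comparisons of tissues. Benjamini-Hochberg adjustment ran over all genes tested, and calls were made at 0.05. Each SE was derived from the fitted log2 difference and its F statistic (size over root F). CPM used the total count of each sample, exon lengths came from GENCODE M21 (21796 of 22855 genes had one), and folds against groups at 0 used a limit of 3 counts per library (0.0391 to 0.0651 CPM). DESeq2 1.42.0, other scalings, other filters, a replicate block, and fits without single samples were alternatives. The scripts were tested on simulated data.

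All 10 genes are named with their values. Other pathway genes were named as the 3 with the largest changes in each direction from P1 to 4 weeks and to 1.5 years among those that passed and whose mean reached 1 CPM in 1 or both of the ages, and Wls, Fzd1, Fzd2, Lrp5, Lrp6, Ctnnb1, Lef1, and Pdgfra were named whatever they showed. The genes and lists were chosen with earlier results of these data known. Of 85 pathway genes listed, 11 had no row and were not analysed here. No pair of replicates held identical values.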

Additional observations from a re-analysis of the deposited data

Results flagged for a closer look

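The following comparisons of change between the tissues passed their own test. The log2 change of Sfrp1 from P1 to 4 weeks differed by 1.87 between cardiac fibroblasts and whole hearts (SE 0.28, adjusted p = 0.000123, edgeR). From P1 to 1.5 years it differed by 1.84 (SE 0.29, adjusted p = 0.000177, edgeR). All P1 hearts were above all later hearts. The fibroblast samples of P1 and 4 weeks overlapped, while those of 1.5 years were all above those of P1 (log2 fold change 0.72). For Sfrp4 from P1 to 1.5 years the fitted difference was 10.20 (SE 3.28, adjusted p = 0.0422), a value that is no bound because Sfrp4 was at 0 in the 3 fibroblast samples of P1, and it was 4.09 without replicate 3 of the P1 hearts (adjusted p = 1.0).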

How the results depend on the processing

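Counts of the 10 genes that passed were recomputed: with another setting 111 stayed within 1.5 times the main count and 16 did not, and without 1 sample 232 did and 38 did not. No difference that had passed turned its direction. Among the 5 ages in cardiac fibroblasts the count was 5, and 3 with at least 10 counts in every sample. From 4 to 14 weeks in cardiac fibroblasts it was 2, and 1 with scaling by total count, 1 with at least 10 counts in every sample, and 0 with only the 2 ages. From 14 weeks to 1 year it was 0, and 1 with DESeq2 and 2 with only the 2 ages. From P1 to 1.5 years it was 2, and 1 with only the 2 ages. In whole hearts from P1 to 4 weeks it was 2, and 4 with only the 2 ages. From 14 weeks to 1.5 years in whole hearts it was 0, and 1 each with RLE size factors, scaling by total count, no mitochondrial genes, at least 10 counts in every sample, and DESeq2. For the difference in change to 4 weeks it was 1, and 2 with DESeq2. The cause of these differences was not tested.

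Without single samples the counts ranged from 4 to 5 among ages in cardiac fibroblasts, 0 to 2 from 4 to 14 weeks (0 without replicate 3 of 4 weeks or either sample of 14 weeks), 0 to 1 from 14 weeks to 1 year, and 1 to 3 from P1 to 1.5 years. In whole hearts they ranged from 2 to 4 among ages, 1 to 3 from P1 to 4 weeks, 0 to 1 from 14 weeks to 1.5 years, and 1 to 4 from P1 to 1.5 years. Between tissues they ranged from 4 to 5, and for the difference in change from 1 to 1 (4 weeks) and 1 to 3 (1.5 years).

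Same-numbered hearts of different ages had a median correlation of -0.039 (range -0.195 to 0.307), and other-numbered hearts 0.021 (range -0.358 to 0.223). Same-numbered fibroblast and heart samples of an age had a median of -0.0042 over 6 pairs (range -0.049 to 0.061). These values show no pairing by number, but they cannot exclude one. With the replicate block the count was 2 from 14 weeks to 1 year in cardiac fibroblasts and 1 from P1 to 4 weeks in whole hearts. The block could not be fitted where ages shared too few numbers. Fibroblast samples of P1 and 4 weeks are numbered 1 to 3, those of later ages 4 to 6, and what the numbers stand for is not given. In fibroblast comparisons of P1 or 4 weeks with later ages, a difference between these numbered series cannot be told apart from age.

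Depth limits Dkk2, Wnt2, Wnt9b, and Sfrp4 most: 4, 1, 3, and 3 of 12 fibroblast samples and 6, 2, 1, and 4 of 15 hearts were at 0. DESeq2 gave no p for Wnt9b in cardiac fibroblasts.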

Other observations

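Over the 12 fibroblast samples, the 2 genes whose log2 CPM was most like that of each gene were named by Pearson's r among 13328 genes, as a description with no test, since samples share age. They were Cxcl16 (0.969) and H6pd (0.961) for Sfrp1, Pitrm1 (0.956) and Prpf19 (0.951) for Sfrp2, Itih2 (0.996) and Atp6v0a4 (0.995) for Sfrp4, 2810408A11Rik (0.898) and Tmem2 (0.884) for Dkk2, Strap (0.780) and Rtcb (0.777) for Dkk3, Gm24270 (0.932) and Rab2b (0.928) for Wif1, Ppa1 (0.899) and Mrpl36 (0.878) for Wnt2, Plekha5 (0.910) and Klc1 (0.906) for Wnt5a, Smarca2 (0.936) and Tdrp (0.927) for Wnt9b, and Pappa2 (0.935) and Lin37 (0.882) for Axin2. Dkk3 had the lowest of these values. Within the set, the strongest values in cardiac fibroblasts were r = -0.77 for Wif1 and Wnt5a and -0.73 for Sfrp2 and Sfrp4. Sfrp2 and Wnt5a followed at -0.71, as did Sfrp4 and Dkk2. Over the 15 hearts the strongest were r = 0.73 for Dkk2 and Dkk3 and 0.71 for Sfrp1 and Sfrp2.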
